A study of Drosophila melanogaster with 6 samples.

Results

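The binding of GAGA factor (GAF) at dpp and tkv was described from 8 of the 11713 GAF peaks that the authors deposited for Drosophila melanogaster embryos. The 8 peaks were those on chromosome arm 2L whose midpoint lay in 1 of 2 windows of FlyBase release 5. The dpp window, from 2420000 to 2490000, held 6 peaks, and the tkv window, from 5205000 to 5255000, held 2. Arm 2L carried 1355 peaks in all, so 1347 lay elsewhere on the arm.

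dpp (decapentaplegic) encodes a secreted ligand of the bone morphogenetic protein (BMP) family, and tkv (thickveins) encodes a type I receptor kinase that binds it. The receptor phosphorylates the transcription factor Mad, which enters the nucleus with its partner Med. In fly embryos the pathway patterns the dorsal side and later acts in dorsal closure, in the gut and in tracheal branch migration. GAF is encoded by Trl and is a zinc finger protein that binds GA-rich DNA at promoters and regulatory elements and is known for its part in keeping chromatin accessible.

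The series comprised 6 libraries, 3 from GAF chromatin immunoprecipitation (ChIP) and 3 from input, the starting chromatin without an antibody step. Each came from embryos aged 8 to 16 h of the strain Y cn bw sp, cross-linked for 15 min in 1.8% formaldehyde. The genotype shared by every library was y[1] with oc[R3.2], then Gr22b[1], Gr22d[1], cn[1] and CG33964[R4.2] together with bw[1] and sp[1], and finally LysC[1], lab[R4.2] and MstProx[1] along with GstD5[1] and Rh6[1]. The antibody, KW3-Trl-D2, was a rabbit polyclonal serum. Whole embryos were used, so binding in cells with and without Dpp signalling is merged in each peak.

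The deposited list gives 1 position and 1 score for each peak and no value for any library. No replicate error, depth or comparison of ChIP with input could therefore be given, and the scale of the authors' score is not given in the sources used here. Score was used to rank and describe peaks, with rank 1 as the highest. Over the whole list it ranged from 5.75 to 2174.57 with a median of 64.7. A peak is called strong below when its score was at or above 292.7, the upper quartile of the whole list. The windows were selected on the GAF peaks of this same list, that is, on the number, score, width and spacing of the peaks in them, so these are given as a description with no test. Which exon, intron or promoter a peak lay in was not analysed here, and neither was the extent of each gene on release 5. A window is therefore named for its gene by the coordinates given, and no peak is assigned to a transcript.

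Each window held 1 high peak with 1 or more weaker ones close to it. At dpp the highest peak ran from 2450469 to 2451830 on 2L, 1362 bp, with a score of 1380.74. It ranked 203 of the 11713 peaks of the list and 35 among the 1355 of 2L. At tkv the highest peak ran from 5236274 to 5238325, 2052 bp, with a score of 1926.27. It ranked 6 in the list and 3 on 2L. The receptor gene's window thus held the higher and wider of these 2 peaks, and the ligand gene's window held the larger number of peaks. The windows differ in length, 70 kb at dpp and 50 kb at tkv, and held 0.857 and 0.400 peaks per 10 kb.

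The other 5 peaks of the dpp window were of low to middle score. The second highest spanned 2454238 to 2455166 (929 bp), scored 251.45 and ranked 3240 in the list, below the limit for a strong peak. The peak from 2448321 to 2448832 was 512 bp wide and scored 66.45, close to the median of the list, at rank 5793. The remaining 3 lay below that median. One from 2449984 to 2450387 was 404 bp wide and scored 27.63 (rank 7603). One from 2427863 to 2428203 was 341 bp wide and scored 20 (rank 8473). The weakest, from 2452216 to 2452499, was 284 bp wide and scored 10.18 (rank 11002), above 6.04% of the list. The 6 dpp peaks therefore ran from near the bottom of the authors' list to a score above 98.3% of it.

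The single other peak of the tkv window spanned 5238513 to 5238998 (486 bp) and scored 44.73. It ranked 6615 in the list, above 43.5% of the peaks. No peak of middle score comparable to the second dpp peak was listed at tkv. Of the 6 dpp peaks 1 was strong, and of the 2 tkv peaks 1 was strong, against 28.0% of the 1355 peaks of 2L (379). With so few members these shares cannot be read against that background. Both strong members also stayed at or above the 90th percentile of the list, where 13.8% of the peaks of 2L lay.

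**Figure D1:**
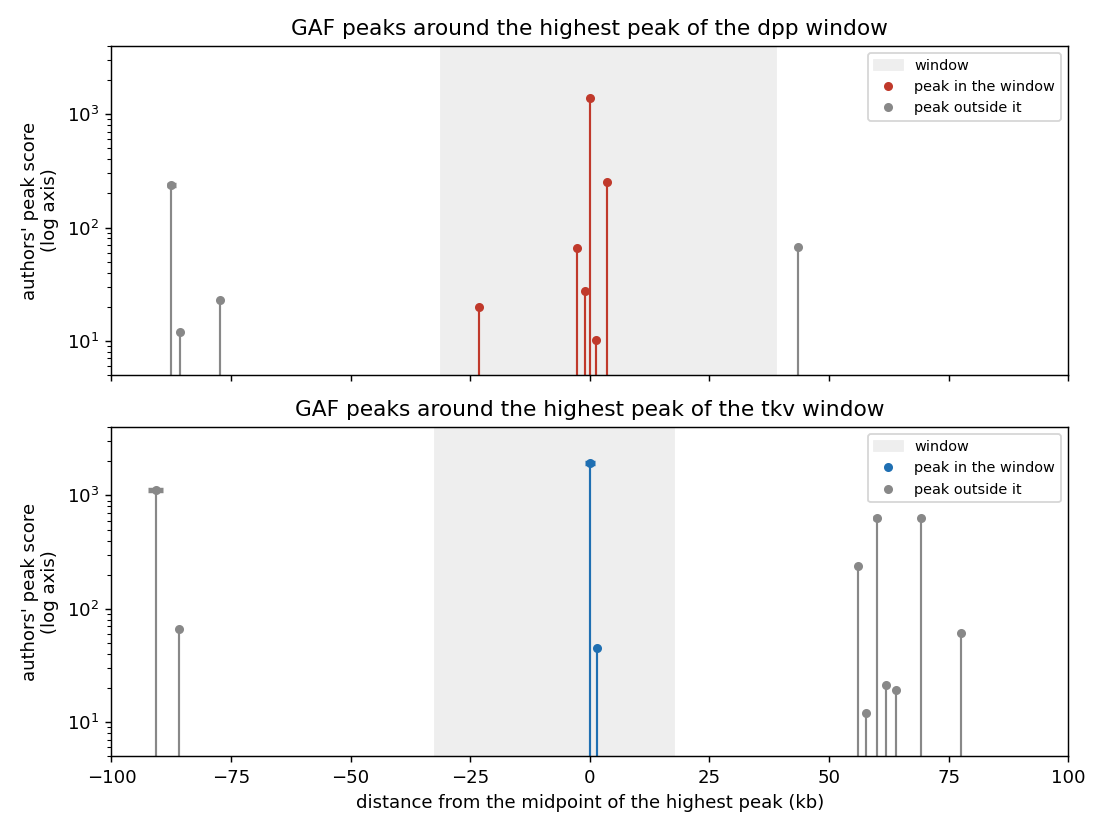
GAF peaks within 100 kb of the highest peak of the dpp window (upper panel) and of the tkv window (lower panel), as distance in kb against the authors' score on a log axis. Each line with a dot is 1 peak and the grey band is the window; the 6 dpp peaks reach 1380.74, the 2 tkv peaks reach 1926.27, and wide stretches with no peak lie on both sides of each group.

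The dpp peaks formed a tight group with 1 outlying member. The group of 5 peaks from 2448321 to 2455166 spanned 6.85 kb. The bases between neighbours in it numbered 1151, 81, 385 and 1738 in order along the arm. The gap of 81 bp separated the peak scoring 27.63 from the highest peak, and 385 bp separated the highest peak from the one scoring 10.18. Among the 1351 runs of 5 consecutive peaks on 2L, 93 (6.88%) were shorter, and the median run spanned 55.3 kb; the run at dpp was picked after its values were seen, by leaving out the sixth peak. The sixth peak, scoring 20, stood apart, 20.1 kb before the group. From the midpoint of the highest peak, 3 of the other 5 midpoints lay before it along the arm, at -23.1, -2.57 and -0.964 kb, and 2 lay after it, at 1.21 and 3.55 kb.

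At tkv the 2 peaks lay 187 bp apart, edge to edge, and spanned 2.73 kb together. Their midpoints were 1456 bp apart. Among 1354 pairs of neighbours on 2L, 31.3% spanned less, with a median of 6.20 kb. The span includes the width of the 2052 bp peak. The gap of 187 bp itself was short for the arm, with 9.82% of the 1354 gaps shorter and a median of 4375 bp.

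**Figure D2:**
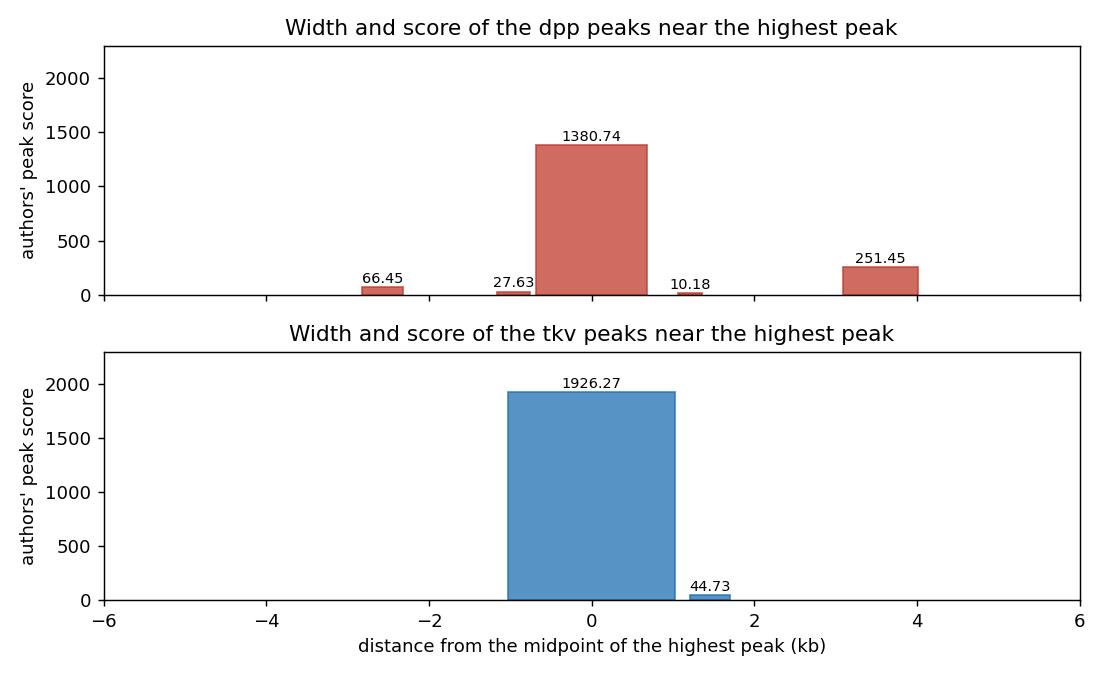
Peaks within 6 kb of the highest peak of the dpp window (upper panel) and of the tkv window (lower panel). Each bar covers the peak's width in kb and rises from 0 to the authors' score printed above it; weak peaks stand on both sides of the highest dpp peak and on 1 side of the highest tkv peak.

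Both highest peaks had a weaker companion under 500 bp away, edge to edge. On 2L a companion of any score was listed for 121 of the 379 strong peaks, the 2 members included. That was 31.9% (95% Wilson interval 27.4 to 36.8). All strong peaks of the arm were counted, so the interval measures no sampling spread. A companion under 500 bp on both sides, as at dpp, was found for 14 of the 379, or 3.69%. With a limit of 1000 bp the shares were 40.1% for at least 1 side and 7.92% for both sides, and among the 187 peaks at or above the 90th percentile a companion under 500 bp was listed for 34.8%. Closely placed calls can be separate sites or parts of 1 bound region, and the list does not tell these apart. With neighbours under 500 bp apart joined, the highest dpp peak and its 2 companions became 1 region of 2516 bp and the tkv pair became 1 region of 2725 bp.

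Outside these groups, long stretches of 2L around dpp and tkv held no peak. Before the first dpp peak, 53.9 kb were free of peaks, longer than 91.4% of the 1354 gaps on the arm. After the last dpp peak 39.2 kb were free, longer than 87.0% of the gaps. At tkv, 84.7 kb before the first peak and 53.8 kb after the second were free, longer than 96.8% and 91.3% of the gaps. The gap before tkv was exceeded by 42 gaps on the arm.

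At the edges of the windows the counts depended little on where the limits lay. The dpp peak nearest to an edge had its midpoint 8032.5 bp inside. The nearest peak beyond an edge, from 2494400 to 2494797 with a score of 67.31 and a width of 398 bp, had its midpoint 4598 bp outside. On the other side the next peak scored 22.7 and lay 46134 bp outside. The midpoints of the 2 tkv peaks lay 16245 bp and 17701 bp inside their window. The nearest peaks beyond it scored 236.55, at 38279 bp, and 66.8, at 53593 bp. Extending the windows by 10 kb at each end added the peak scoring 67.31 to dpp and none to tkv.

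Width followed score at both genes. In the order of their scores, from 10.18 to 1380.74, the 6 dpp peaks were 284, 341, 404, 512, 929 and 1362 bp wide, so each higher peak was also wider. The 2 tkv peaks, 486 bp and 2052 bp wide, had the same order. Width and score come from the same peak calls and are not separate measurements. The highest tkv peak was wider than 92.8% of the peaks of 2L and the highest dpp peak wider than 85.2%. Against strong peaks alone, which had a median width of 1263 bp on 2L (quartiles 877 and 1938 bp, the 2 highest members left out), 55.4% were narrower than the dpp peak and 77.7% narrower than the tkv peak. Of the other 33 peaks of 2L that scored at least as high as the dpp peak, 6 were narrower than the dpp peak and 16 were narrower than the tkv peak, with a median of 2160 bp. The dpp peak was thus narrower than most peaks at least as high as itself, and the tkv peak lay near the middle of their widths.

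**Figure D3:**
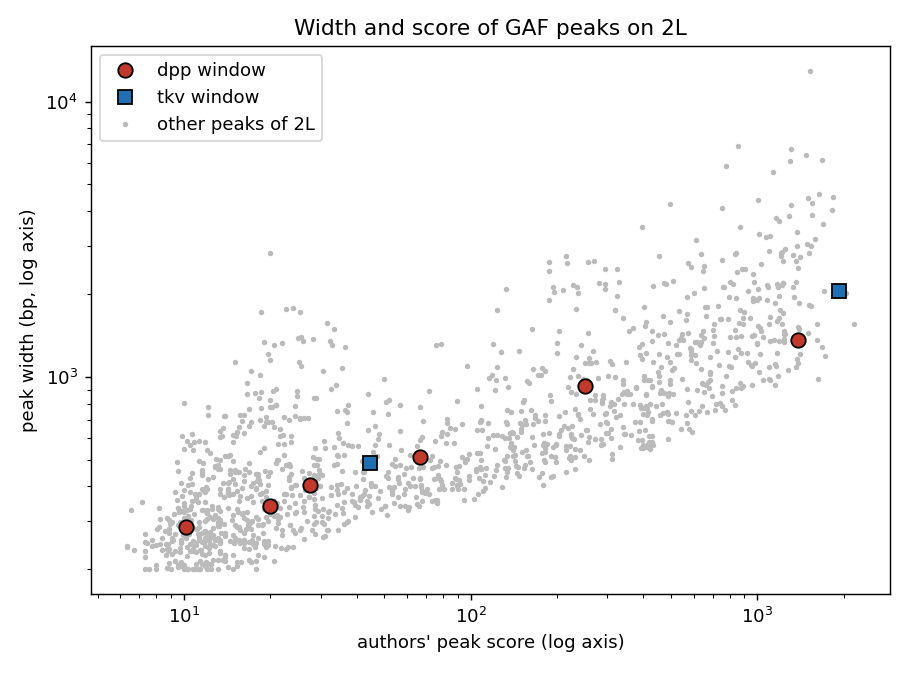
Authors' score against peak width in bp, both on log axes, for the 6 peaks of the dpp window (circles), the 2 of the tkv window (squares) and the other 1347 peaks of 2L (grey dots). The 8 members run from 284 bp at a score of 10.18 to 2052 bp at 1926.27.

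The windows were set beside other stretches of 2L of the same length, laid end to end in both directions from each window. There were 325 such stretches of 70 kb for dpp and 457 of 50 kb for tkv. In number of peaks dpp was above most stretches and tkv near the middle. The 6 dpp peaks compared with a median of 3 per stretch (quartiles 2 and 5), with 245 stretches holding fewer (75.4%), 28 holding the same number and 52 more. The 2 tkv peaks compared with a median of 2 (quartiles 1 and 4), with 179 stretches holding fewer (39.2%), 82 the same number and 196 more. With neighbours under 500 bp apart joined, 4 peaks were left at dpp and 1 at tkv, above 64.6% and 17.3% of the stretches. With the windows extended by 10 kb at each end the shares were 71.4% and 22.2%. With the windows shortened by 5 kb at each end they were 80.8% and 49.9%. With peaks under the list's median score left out, 3 peaks remained at dpp and 1 at tkv, above 65.8% and 30.4% of the stretches. Per 10 kb there were 0.857 peaks at dpp and 0.400 at tkv, against means of 0.589 and 0.587 over their stretches. These means include stretches with up to 44 peaks in 70 kb and up to 32 in 50 kb.

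The share of bases inside peaks was close at both genes although the numbers of peaks differed. Peaks covered 3832 bp of the dpp window, or 5.47%, and 2538 bp of the tkv window, or 5.08%. The means over their stretches were 4.82% and 4.80%. The medians were lower beside the windows, 2320 bp per stretch of 70 kb and 1470 bp per stretch of 50 kb. In covered length the windows exceeded 68.6% and 68.3% of their stretches. Among stretches with the same number of peaks the genes stood apart. The 3832 bp at dpp exceeded 9 of the 28 stretches that also held 6 peaks, whose median was 4408 bp, and the 2538 bp at tkv exceeded 75 of the 82 that also held 2, whose median was 1354.5 bp. The highest peak alone made up 35.5% of the covered length at dpp and 80.9% at tkv.

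In the height of its strongest peak, tkv stood nearer to the top of its stretches than dpp did. Of the 378 stretches of 50 kb with at least 1 peak, 376 had a lower highest score than tkv and 2 had a higher one. The share was 99.5% (Wilson interval 98.1 to 99.9). The stretches tile the arm and are no random sample, so the interval measures no sampling spread. The median highest score of the 378 stretches was 455.845. Of the 298 stretches of 70 kb with at least 1 peak, 268 had a lower highest score than dpp (89.9%; 86.0 to 92.9) and 30 had a higher one, with a median of 557.1. Among the 82 stretches of 50 kb that also held 2 peaks, 81 had a lower highest score than tkv. Among the 28 stretches of 70 kb that also held 6 peaks, 25 had a lower highest score than dpp.

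The median scores of the windows lay on opposite sides of the middle of the arm. The median was 47.04 at dpp, above 28.9% of the stretches, and 985.5 at tkv, above 95.5%, where it is the midpoint of 1 very high and 1 low score. Median width was 458 bp at dpp, above 29.2% of the stretches, and 1269 bp at tkv, above 91.3%. The places of dpp depended on how peaks were counted. With neighbours under 500 bp apart joined, the median score at dpp was above 47.5% of the stretches and the median width above 51.9%, and with peaks under the list's median score left out the median width was above 52.7%. With 2 peaks the tkv medians rest on both values equally and describe neither peak. The median spacing between neighbouring midpoints at dpp, 1609 bp over 5 spacings, was longer than that of 18.8% of the 191 stretches with 3 peaks or more, whose median was 4522.25 bp. Among the 28 stretches that also held 6 peaks, 9 had a shorter median spacing. With peaks under the list's median score left out, 3 peaks remained at dpp and their median spacing was longer, 3062.75 bp. Of the 111 stretches then compared, 3.60% had a shorter one. The tkv window, with 1 spacing, was not placed on this measure.

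**Figure D4:**
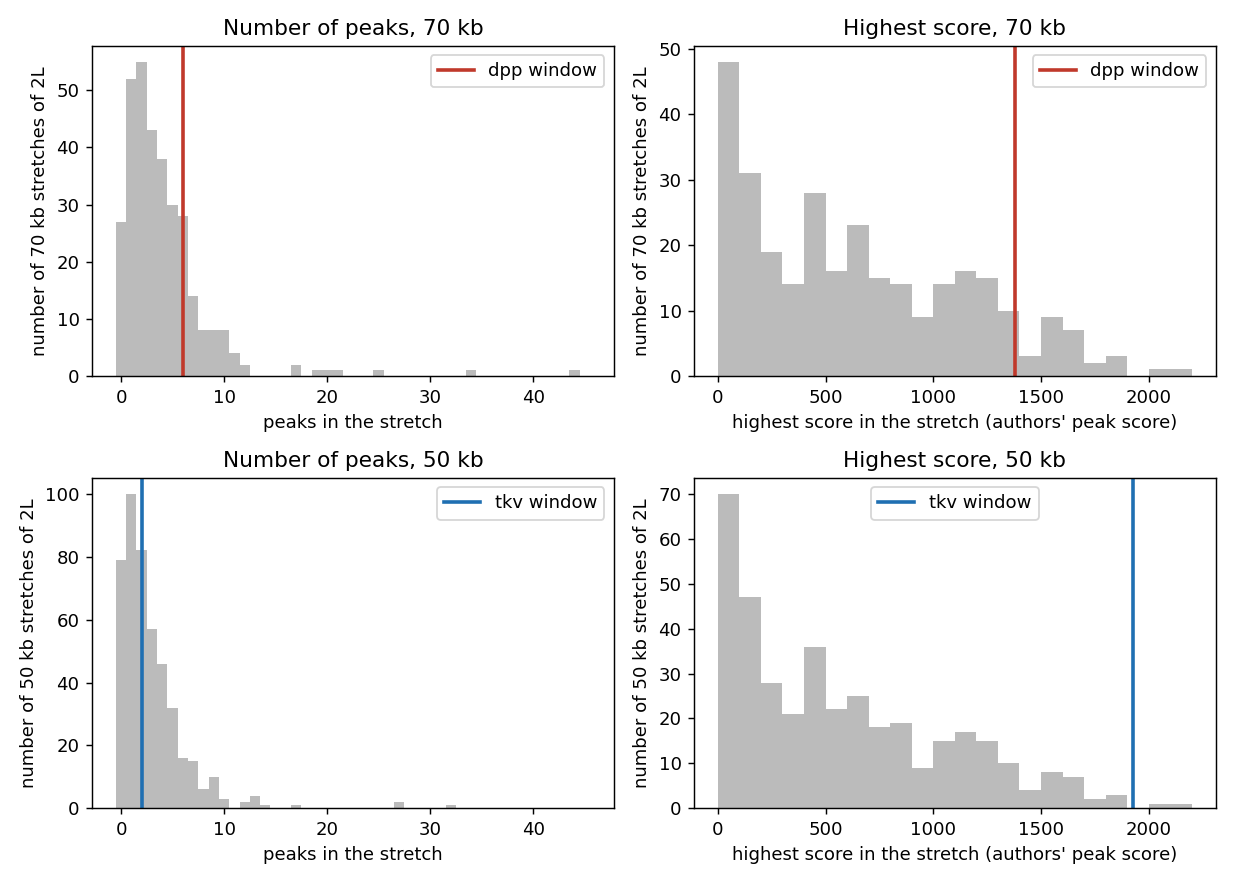
Number of stretches of 2L by peaks held (left) and by highest authors' score (right), for 70 kb stretches with the dpp window as a line (upper row) and 50 kb stretches with the tkv window as a line (lower row). The dpp line stands at 6 peaks and a score of 1380.74, and the tkv line at 2 peaks and a score of 1926.27, with 2 stretches to its right.

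Each window held exactly 1 strong peak. Of the stretches with at least 1 strong peak, 98 of 203 (48.3%; Wilson interval 41.5 to 55.1) of those of 70 kb and 144 of 237 (60.8%; 54.4 to 66.8) of those of 50 kb held exactly 1, so this was a common arrangement on 2L.

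The strong peak at dpp lay far from the next strong peak. The nearest ones were 209 kb before it, with a score of 1013.91, and 303 kb after it, with a score of 1815.97. Among the other 377 strong peaks of 2L, 375 (99.5%) had a closer strong neighbour, and the median distance was 14.3 kb. This depends on the score limit, because the dpp peak scoring 251.45 lies 3.55 kb away and just under it. With a limit of 200 that peak became the nearest strong one, and 15.1% of the other peaks past the limit had a closer neighbour. With the 90th percentile as the limit the share was 98.4%. At tkv the nearest strong peaks were 90.8 kb before the highest peak, with a score of 1105.98, and 60.0 kb after it, with a score of 634.71, and 87.8% of the other strong peaks had a closer one.

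Counted over peaks of any score, the highest tkv peak had fewer neighbours than the highest dpp peak within 50 kb but not within 100 kb. Within 50 kb of the highest tkv peak lay 1 other peak, its companion. Of the other 377 strong peaks of 2L, 11 had fewer peaks within that distance and 18 had the same number, with a median of 6. Within 50 kb of the highest dpp peak lay 6 other peaks, the number at that median. Within 100 kb there were 9 other peaks at dpp, none of them strong, and 10 at tkv, of which 3 were strong.

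**Figure D5:**
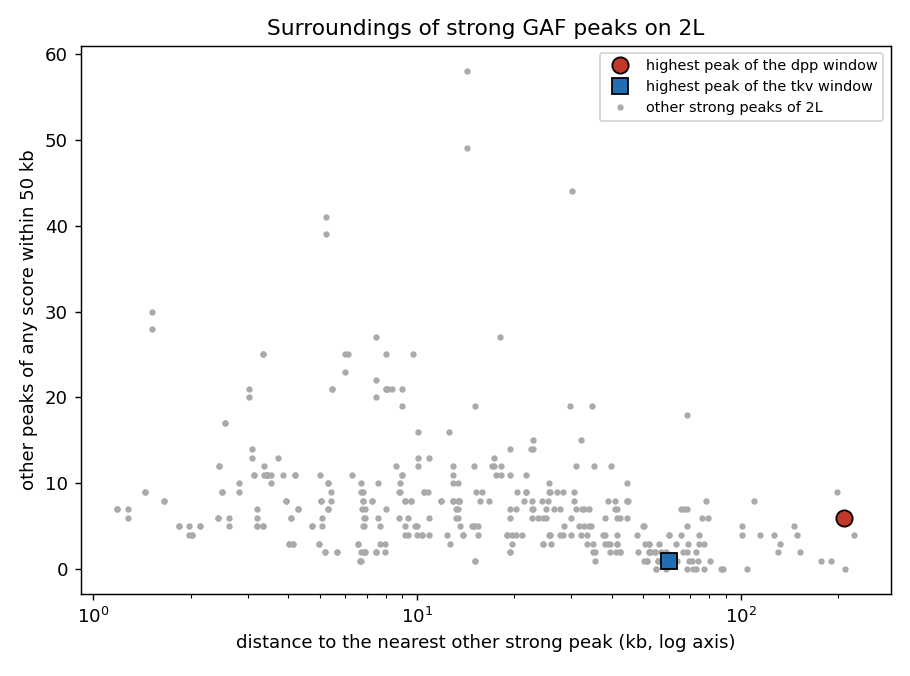
Distance in kb (log axis) from each strong peak of 2L to the nearest other strong peak, against the number of other peaks of any score within 50 kb. The highest dpp peak (circle) lies at 209 kb with 6 peaks near it, the highest tkv peak (square) at 60.0 kb with 1, and grey dots are the other 377 strong peaks.

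Gene order was that of protein-coding genes by start position in a gene table of release 6, used for names alone. In that order dpp lies between CG44139 and Slh, followed by oaf. The gene tkv lies between TpnC25D, a troponin C gene, and Cyp4ac1, a cytochrome P450 gene. Whether any of the 8 peaks belongs to one of these neighbours was not tested. The list of 29 genes of the Dpp pathway held for comparison, with ligands such as scw and gbb, receptors such as sax and put, and modulators such as sog and tld, is in the gene table in full. GAF peaks at the other 27 were not analysed here, since an annotation of release 5 was not used.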

How the data were processed

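Reads were handled with MACS2, BWA and CASAVA (1.7.0.2, 1.7.0.3) on build BDGP5, per the submitters' processing notes; the coordinates are those of FlyBase release 5, per the file headers. The authors deposited 1 peak list for the series, with a start, an end and a score per peak. How peaks were thresholded, how input entered and how libraries were combined is not given in the sources used here. No per-library value was used, so depth is unknown.

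The smallest start in the list was 0, so 1 was added to each start printed. Peaks were assigned by midpoint. Stretches equal in length to a window tiled the span of 2L from first to last peak, without those touching either window. They are no random sample, so Wilson intervals of their shares serve only as a yardstick for change between settings. Spacing needed 3 peaks. Every member peak is named. The members and lists were chosen with earlier results of these data known; the companion, isolation, run and gap measures were chosen after the values were seen. Planned promoter motif counts were not run, because promoter sequence was not used here. The stretch counts were tested on 20 simulated lists. Tools were matplotlib 3.10.9, scipy 1.17.1, pandas 2.3.3, numpy 2.4.6 and Python 3.11.15.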

Additional observations from a re-analysis of the deposited data

How the results depend on the processing

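The 22 results were recomputed to 111 values. Of these values, 81 stayed within the 95% Wilson interval of the share reported or within 1.5 times a count, and 30 moved. Of the moved shares, 3 crossed 50%: the median width at dpp under 2 settings and the share with a closer strong neighbour than dpp. Shares below are percentages of stretches lower than the window. Keeping peaks at or above the median score left 3 peaks at dpp and 1 at tkv, by construction; at dpp the share became 65.8 for number, 52.7 for median width and 3.60 for median spacing, and at tkv 30.4 for number and 99.7 for median score. Joining under 500 bp gave 1 peak at tkv and 4 in place of 6 at dpp, a count that lies at the limit of 1.5 times. The shares at dpp became 64.6 for number, 47.5 for median score, 75.8 for widest peak and 51.9 for median width. Those at tkv became 17.3, 99.7 and 95.8 for number, median score and median width. Leaving out empty stretches gave 26.5 for number and 61.6 for covered length at tkv. Windows extended by 10 kb gave 63.1 for covered length, 39.3 for median score and 18.4 for median width at dpp, and 22.2 for number, 52.9 for covered length and 77.2 for widest peak at tkv. Windows shortened by 5 kb gave 80.8 for number and 76.3 for covered length at dpp, and 49.9 and 75.1 at tkv. The share of stretches with a lower highest score stayed within its interval in every alternative run at both genes. Much of this was fixed in advance. The windows' own highest scores, 1380.74 and 1926.27, were the same in every setting. Neither joining nor the median limit could change them, and leaving out empty stretches could not change the share. Among measures added after the values were seen, the share of strong peaks with a companion was 40.1 at 1000 bp, the share with a closer strong neighbour than dpp was 15.1 at a score of 200 or more, and the share with fewer peaks within 50 kb than dpp was 38.9 at the 90th percentile. The cause was not tested for the moves not fixed by construction. Membership by overlap and overlapping stretches every 10 kb moved no value past these limits. No paired analysis was possible because the replicate numbers shared by ChIP and input have no values of their own in the single list used; leaving out a replicate could not be done either. The motif alternatives were not run. The detection limit is unknown without depths, and a gap in the list does not show that GAF is absent.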
